A study of Mus musculus with 2 samples.

Results

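Phosphatidylserine is a lipid that healthy cells keep on the inner face of the plasma membrane and that dying cells show on the outside, where phagocytes read it as a call to engulf them. The 9 genes described here encode the proteins that set its side: 3 flippases (Atp11a, Atp11b and Atp8a1), the chaperone the flippases need (Tmem30a), and 5 genes of scramblase families (Xkr8, Ano6, Plscr1, Plscr3 and Plscr4). They were taken by symbol from the 55487 Ensembl genes of the expression table, each symbol matched a single identifier, and the rule uses no measured value. Of the 9 genes, 8 averaged 1 FPKM or more across both libraries (the filter used throughout), and Atp8a1 did not.

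The values come from RNA sequencing of primary mouse osteoblasts, the bone-forming cells, killed by ultraviolet light. Per the labels, both groups were grown out of bone fragments, passaged as marrow mesenchymal stem cells, kept for 3 days in medium that induces osteoblasts, and exposed to the light for 0.5 h, after which over 90% of cells took up Trypan Blue. The young group and the old group each hold 1 library. The sources used here do not give strain, sex, exact age or the number of animals. The treatment label is day 0 on the young library and day 5 on the old one, so that age and the labelled day cannot be told apart. With 1 library per group no difference could be tested, and living cells were not measured. In such bulk RNA, fewer cells of one kind and less RNA per cell cannot be told apart.

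The FPKM values were scaled to totals of 16333396 reads (young) and 18114336 reads (old), worked out from the steps in the values. The number of reads sequenced cannot be worked out this way. FPKM is the number of fragments per kilobase of gene length, scaled to the size of the library. Brackets after a ratio hold its 95% counting interval, which covers counting error only and not the spread between cultures or animals; copies made by PCR are not independent molecules. Markers of bone collagen-producing cells were abundant in both libraries, with Col1a1 at 8568 and 6788 FPKM. The osteoblast factor Runx2 was at 92.1 and 72.7 FPKM. On the same list, Alpl (2.78 and 3.28 FPKM) and Ibsp (6.31 and 5.90 FPKM) were low. Bglap, osteocalcin of mature osteoblasts, had 3 and 6 reads. Of the 8 osteoblast markers past the filter, 6 were lower and 2 higher in the old library, among them Sp7 (55.5 and 28.9 FPKM) and Spp1 (223.8 and 1732 FPKM), and the part of this in the results below was not tested. Summed FPKM of the other cells' markers was 26.0 (young) and 23.5 (old) over 11 leukocyte genes, 0.357 and 0.323 over 5 endothelial genes, 0.0524 and 0.356 over 5 adipocyte genes, 9.83 and 12.2 over 7 red cell and platelet genes and 2.06 and 2.16 over 5 muscle genes. Of the leukocyte markers, Lyz2 (21.3 and 18.4 FPKM) and Cd68 (4.51 and 4.36 FPKM) passed the filter and made up nearly all of that sum. Cd3e, Adgre1, Itgam and Mpo had no reads in either library. Of the 50-base words of Itgam, 80.5% were shared with another gene; here and below, such words were taken every 25 bases of a gene's transcripts. Over 5 chondrocyte genes the sums were 98.2 and 97.9, carried by Sox9 and Col2a1, with Acan at 0 in both.

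Flippases of the P4-ATPase family use ATP to carry phosphatidylserine inward, and nearly all of them must pair with a CDC50 chaperone such as Tmem30a to leave the endoplasmic reticulum. Scramblases move lipids both ways without ATP and erase the difference between the leaflets once they are switched on. In apoptosis, caspases cut the flippase Atp11a, which ends its work, and cut the tail of Xkr8, which starts its scrambling. Ano6 is switched on by calcium instead. These steps act on proteins, and neither proteins nor exposed lipid were measured in these libraries.

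The coding stretches below show the site that defines the first class and the stretch of Xkr8 that holds a caspase-type motif. They were read from GENCODE transcripts of GRCm38, from the transcript with the longest coding sequence of each gene. The first 3 lines cover 9 codons around the P-type ATPase signature, whose aspartate takes up phosphate from ATP in each transport cycle, with capitals for the 18 of 27 bases that are the same in all 3 flippases. The Atp11a stretch (codons 412 to 420) lies at chr8:12831097-12831123 on the plus strand, that of Atp11b (codons 405 to 413) at chr3:35809369-35809395 on the plus strand, and that of Atp8a1 (codons 407 to 415) at chr5:67761164-67761190 on the minus strand.
Atp11a: TTcaCtGAcAAgACcGGcACgCTtACA
Atp11b: TTtaCaGAtAAaACtGGaACaCTgACA
Atp8a1: TTttCtGAcAAaACtGGgACcCTgACA
The fourth line is codons 348 to 357 of the 401 codons of Xkr8, at chr4:132727990-132728019 on the minus strand, with capitals for an aspartate codon, 2 other codons and a second aspartate codon, a spacing that caspases recognise.
Xkr8: tgggaccctGACCTCGTGGATgggacccta
The 60 last codons of Xkr8 held this spacing 1 time. The same spacing stood in the 60 last codons of 12.8% of 21584 protein-coding genes, so that a match by itself does not mark a caspase target. Over whole coding sequences, 0.873% of the 12-base words of Atp11a also stood in Atp11b. Such exact words miss likeness that is broken by single bases, as in the stretches above. Of 50-base words taken every 25 bases, none from Atp11b, Atp8a1 or Tmem30a matched a transcript of another gene.

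In GRCm38 the genes lie as follows. The flippases are Atp11a (ENSMUSG00000031441, chromosome 8, 12757014 to 12868728, plus strand), Atp11b (ENSMUSG00000037400, chromosome 3, 35754106 to 35856276, plus strand) and Atp8a1 (ENSMUSG00000037685, chromosome 5, 67618140 to 67847434, minus strand). The chaperone is Tmem30a (ENSMUSG00000032328, chromosome 9, 79768943 to 79793507, minus strand). Of the scramblases, Xkr8 (ENSMUSG00000037752, chromosome 4, 132724897 to 132732546, minus strand) and Ano6 (ENSMUSG00000064210, chromosome 15, 95790843 to 95974751, plus strand) are multi-pass membrane proteins of separate families. The phospholipid scramblases are Plscr1 (ENSMUSG00000032369), Plscr4 (ENSMUSG00000032377), whose positions follow with their cluster, and Plscr3 (ENSMUSG00000019461, chromosome 11, 69846376 to 69852058, plus strand).

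Across the 9 genes, the scramblases other than Xkr8 were higher in the old library, and Xkr8, both measured flippases and the chaperone were lower there, Atp11a by no more than the median gene. Plscr1 differed most, at 1.88 times the young value, and none of the 8 measured genes was 2-fold higher or lower on the log2 scale of FPKM + 1. Among all 12561 genes past the filter, 1.97% were 2-fold higher and 0.868% 2-fold lower. At 1.5-fold, 1 of the 8 was higher (Plscr1) and none lower, beside 5.52% and 4.47% of all genes. The median log2 ratio of the 8 was 0.06, and that of all genes was −0.07 with an SD of 0.40 across genes.

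**Figure D1:**
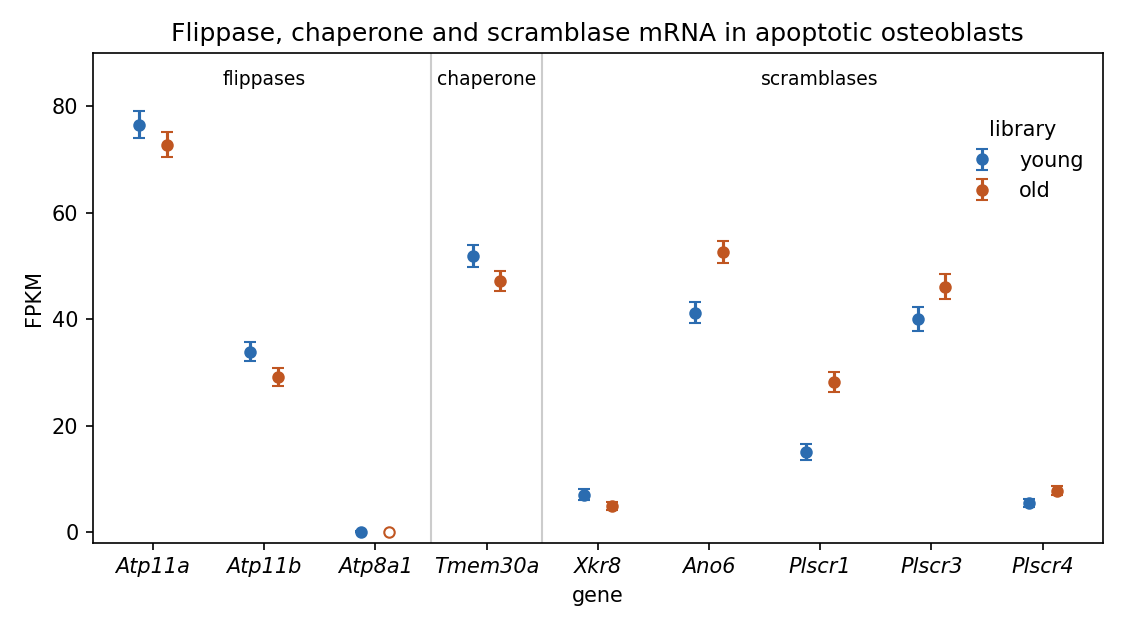
FPKM of the 9 genes in the young (blue) and the old (orange) library, 1 library each; bars are exact 95% Poisson intervals of the read counts, and the open circle marks 0 reads. Plscr1 stands at 14.96 and 28.1 FPKM and Ano6 at 41.2 and 52.6, whereas Atp8a1 lies at the axis in both.

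Atp11a, a flippase of the plasma membrane, was the most abundant of the 9 in both libraries, at 76.6 FPKM (young) and 72.7 FPKM (old). With 3474 and 3659 reads behind it, its ratio was 0.950 [0.906 to 0.995], and the counting intervals of its levels overlapped. The median gene past the filter had a ratio of 0.952, so Atp11a lay at the middle of all genes, ranking 6432 of 12561 from the highest log2 ratio.

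Atp11b, a relative found mainly on endosomes, was at 33.9 FPKM (young) and 29.1 FPKM (old), from 1274 and 1213 reads. Its ratio was 0.859 [0.793 to 0.930], lower than that of the median gene by more than its counting error. Atp8a1, a flippase best known from neurons and red cells, had 1 read in the young library (0.0211 FPKM) and 0 in the old, where the limit set by 3 reads is 0.0570 FPKM. It was therefore at or near the detection limit in both libraries, and no fold is given.

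Tmem30a, the chaperone, was at 51.8 FPKM (young) and 47.1 FPKM (old), from 2326 and 2344 reads. The ratio was 0.909 [0.858 to 0.963]. The intervals of its levels did not overlap, yet the ratio's interval holds that of the median gene. The other chaperones of this family were nearly silent: Tmem30b had no reads, and Tmem30c had 12 (young) and 0 (old).

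Xkr8, the scramblase that caspases switch on, was at 6.96 FPKM (196 reads) in young and 4.84 FPKM (151 reads) in old cells. Its ratio of 0.695 [0.558 to 0.863] was the lowest of the 8, and it ranked 1122 from the lowest log2 ratio (−0.45). On a log scale its interval was the widest of the 8.

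Ano6, the calcium-activated scramblase whose loss causes the bleeding disorder Scott syndrome, was at 41.2 FPKM (young) and 52.6 FPKM (old). With 1746 and 2470 reads the ratio was 1.28 [1.20 to 1.36]. Its difference had the opposite sign to that of Xkr8, and it ranked 1441 from the highest log2 ratio (0.34). An antisense neighbour with overlapping exons, A130051J06Rik, had 22 and 23 reads.

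The phospholipid scramblase (PLSCR) proteins were named for moving lipids in artificial membranes, and their part in exposing phosphatidylserine on dying cells is not settled. Plscr1, which also acts as an interferon-induced antiviral protein, was at 14.96 FPKM (396 reads) in young and 28.1 FPKM (825 reads) in old cells. The ratio was 1.88 [1.66 to 2.12] and the log2 ratio 0.87, rank 353 of 12561 from the highest. Of its 50-base words, 18.4% also occurred in Gm5530, a processed pseudogene with 4 and 15 reads, so reads from shared stretches may be missing or split.

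Plscr3, a mitochondrial member that acts on cardiolipin, was at 40.0 FPKM (young) and 46.1 FPKM (old), a ratio of 1.15 [1.07 to 1.24]. Exons of the opposite-strand gene Tnk1 cover 28.3% of its exon bases, but Tnk1 had no reads in either library. Plscr4 was at 5.46 FPKM (212 reads) in young and 7.73 FPKM (333 reads) in old cells, a ratio of 1.42 [1.19 to 1.69]. All 3 Plscr genes were higher in the old library, with ratio intervals above 1, as for 20.6% of all genes.

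**Figure D2:**
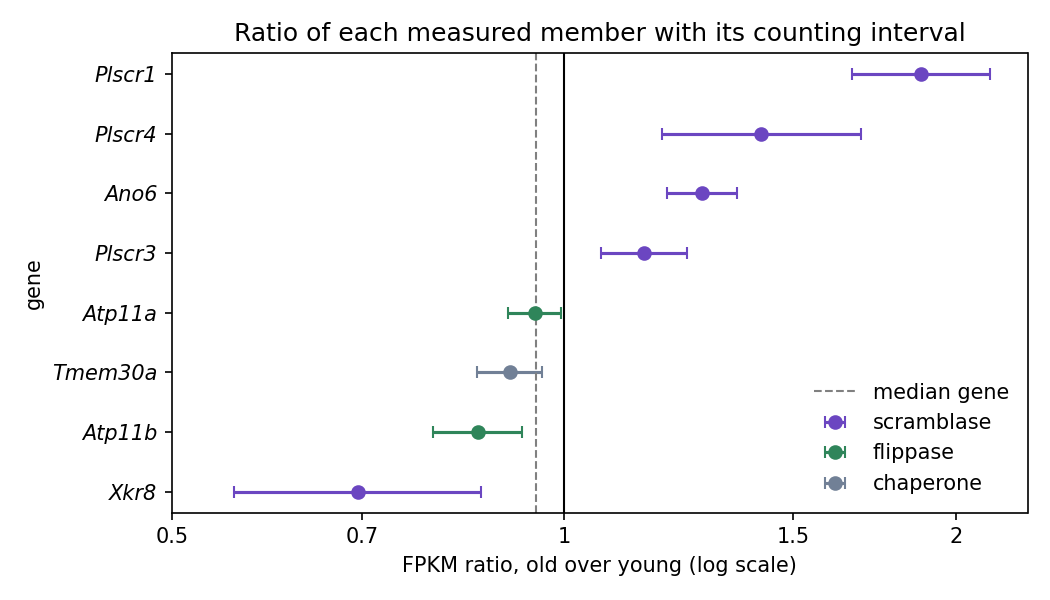
FPKM ratio of old over young for the 8 genes past the filter on a log axis, with 95% counting intervals; the solid line is 1 and the dashed line the ratio of the median gene, 0.952. Plscr1, Plscr4, Ano6 and Plscr3 lie to the right of both lines. The intervals of Atp11a and Tmem30a cross the dashed line, and those of Atp11b and Xkr8 lie to its left.

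Against a ratio of 1, the intervals of 4 genes lay above and those of 4 below. Among all genes with recovered reads, 20.6% had an interval above 1 and 33.6% below it. Against the median gene, 4 of the 8 intervals lay above, 2 below (Atp11b and Xkr8), and 2 held it (Atp11a and Tmem30a), beside 27.2% above and 24.3% below for all genes. An interval narrows with depth, so these shares describe counting error and not age. In the plot of all log2 ratios, Plscr1 lies at 0.87 and the other 7 genes between −0.45 and 0.43.

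**Figure D3:**
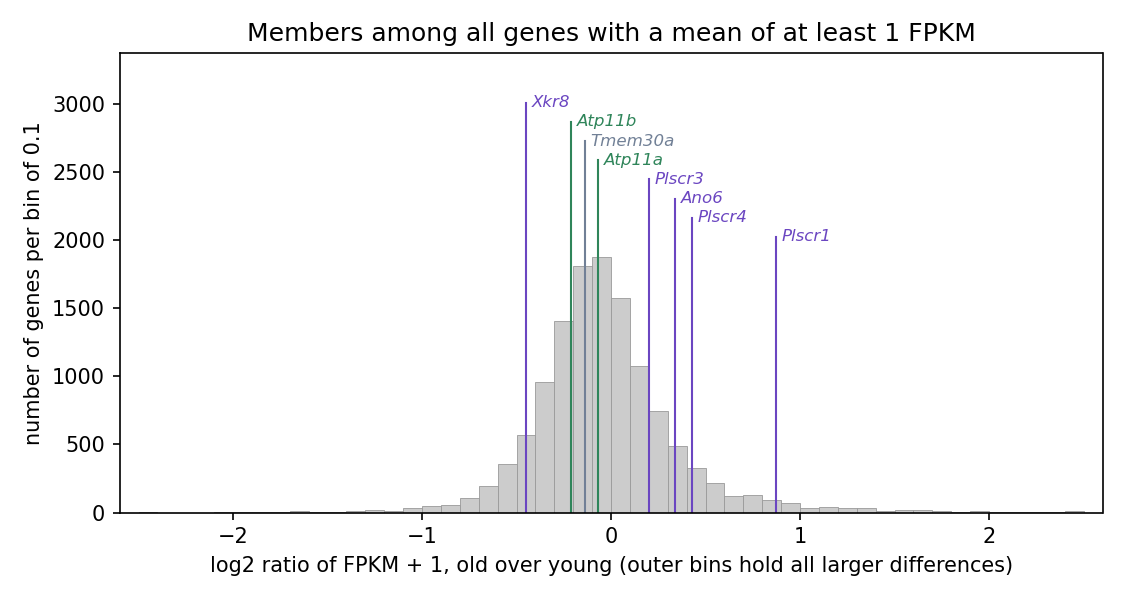
Histogram of log2 ratios (old over young, FPKM + 1) in 12561 genes past the filter (bins of 0.1), with a line for each of the 8 genes; line heights only separate the names. Xkr8 stands at −0.45 and Plscr1 at 0.87, while all genes have a median of −0.07.

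The order of the levels was similar in both libraries, apart from the places of Ano6 and Plscr4. In the young library it ran Atp11a, Tmem30a, Ano6, Plscr3, Atp11b, Plscr1, Xkr8, Plscr4 and Atp8a1, where the counting intervals of Ano6 and Plscr3 overlapped, as did those of Xkr8 and Plscr4. In the old library Ano6 stood above Tmem30a and Plscr4 above Xkr8, with overlap between Tmem30a and Plscr3 and between Atp11b and Plscr1. The order depends on the length behind FPKM. That length matched the mean of a gene's annotated transcripts, 2594 bases for Ano6, whose exons cover 12269 bases in all. With the full exon length, Tmem30a (25.2 FPKM in the young library), Plscr3 (23.7) and Atp11a (19.1) came first and Ano6 (8.71) stood behind Plscr1 (9.85). Ratios between the libraries do not depend on length.

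Summed over each class, the 5 scramblase genes gave 108.6 FPKM (young) and 139.3 FPKM (old), a ratio of 1.28. The 3 flippases gave 110.5 and 101.8 FPKM, a ratio of 0.922. The scramblase sum was thus 0.983 times the flippase sum in young and 1.37 times in old cells. With full exon lengths it was 1.76 and 2.52 times. At the deposited lengths, Plscr1, Plscr3 and Plscr4 gave 60.5 and 81.9 FPKM of it, and Xkr8 with Ano6 gave 48.2 and 57.4 FPKM. Without the Plscr genes, whose part in exposing phosphatidylserine is not settled, the scramblase sum was below the flippase sum in both libraries. Such sums weigh genes by mRNA abundance and take no account of how active each protein is, and Xkr8, with the smallest ratio, adds little to them.

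Plscr1 and Plscr4 lie on the plus strand of chromosome 9, in a cluster of 4 Plscr genes that spans 299.5 kb. The order is Plscr5 (92192936 to 92209772), Plscr1 (92249750 to 92272278), Plscr2 (92275602 to 92297752) and Plscr4 (92457373 to 92492456) in GRCm38. Plscr2, the closest relative of Plscr1, was at 12.01 FPKM (young) and 21.2 FPKM (old) (ratio 1.76 [1.52 to 2.05], log2 ratio 0.77). Plscr5 had no reads. Of the 12-base words in the Plscr1 coding sequence, 18.1% also stood in that of Plscr2 and 1.75% in that of Plscr4. None of the 50-base words taken from Plscr1 matched either gene. Within 1000 kb on both sides, the single other gene past the filter was the collagen lysyl hydroxylase Plod2, at 65.5 and 59.5 FPKM (log2 ratio −0.14). The 3 detected Plscr genes of the cluster had ratio intervals above 1, beside 20.6% of all genes. Plod2 lay nearer the median of all genes (−0.07), and with this 1 neighbour no contrast between cluster and surroundings is drawn.

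RefSeq start-site windows (GRCm38.p6; 250 bases before to 50 after the start) were at hand for 8 of the 9 genes and are printed for 3: Plscr1 and Plscr4, the 2 genes with the highest ratios, and the flippase Atp11b, which differed in the other direction. Capitals mark a GC box (GGGCGG, found in 35.7% of 32851 windows) or a gamma-interferon-activated sequence (TTCNNNGAA, found in 8.3%), on either strand. The Plscr1 window is chr9:92249944-92250243, plus strand, and its start lies 444 bases downstream of the first annotated GENCODE base. The Plscr4 window is chr9:92457128-92457427, plus strand, and that of Atp11b is chr3:35753813-35754112, plus strand.
Plscr1: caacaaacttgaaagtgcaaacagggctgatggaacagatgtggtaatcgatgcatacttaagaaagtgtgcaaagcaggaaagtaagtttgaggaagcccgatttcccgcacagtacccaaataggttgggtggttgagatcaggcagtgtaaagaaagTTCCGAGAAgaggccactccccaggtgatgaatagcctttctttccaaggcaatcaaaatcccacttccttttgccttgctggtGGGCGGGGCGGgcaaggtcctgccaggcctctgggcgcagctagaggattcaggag
Plscr4: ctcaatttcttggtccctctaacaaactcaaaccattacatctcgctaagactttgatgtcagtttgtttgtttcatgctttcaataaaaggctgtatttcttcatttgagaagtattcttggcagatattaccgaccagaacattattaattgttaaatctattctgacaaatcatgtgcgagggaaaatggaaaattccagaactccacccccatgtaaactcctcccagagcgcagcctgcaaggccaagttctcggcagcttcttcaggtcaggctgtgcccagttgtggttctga
Atp11b: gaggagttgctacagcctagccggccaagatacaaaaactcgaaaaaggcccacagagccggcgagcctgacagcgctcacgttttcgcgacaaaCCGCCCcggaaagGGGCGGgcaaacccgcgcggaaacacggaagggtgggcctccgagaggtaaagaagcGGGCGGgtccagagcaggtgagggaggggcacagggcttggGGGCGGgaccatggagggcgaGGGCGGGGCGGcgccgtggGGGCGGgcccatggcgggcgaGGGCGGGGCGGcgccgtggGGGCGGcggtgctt
The Plscr1 window held 2 overlapping GC boxes and 1 TTCNNNGAA, which no other window of the 8 genes held. Atp11b had 10 GC boxes, some of them overlapping, and Plscr4 none. An interferon-stimulated response element (GAAA, 2 bases of any kind, GAAA) was absent from the windows of all 8 genes, on both strands. So was a TATA box (TATAAA). These motifs stood in 3.44% and 13.6% of all windows. The Plscr1 window lies wholly within the annotated gene, so bases upstream of the first annotated base of Plscr1 were not searched. The windows of Plscr1 and Plscr4 were the poorest in CpG of the 8 genes, with an observed over expected ratio of 0.373 and 0.384 beside a median of 0.384 for all windows. Those of the other 6 genes, with 3 start sites for Plscr3, had 0.678 to 0.961.

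Since Plscr1 is a known interferon target, its values are set beside 20 interferon-inducible genes. Of these, 19 passed the filter and all had log2 ratios above 0, with a median of 1.20. On the scale of FPKM + 1, 12 of the 19 were at least 2-fold higher in old cells, beside 1.97% of all genes. Mx1 (1.11 and 8.85 FPKM), Oas2 (6.88 and 30.6 FPKM) and Ifit1 (17.2 and 64.2 FPKM) differed most. Plscr1, at 0.87, had a larger log2 ratio than 6 of the 19 and a smaller one than 13. The part that interferon signalling has in the Plscr1 difference was not tested. By level in both libraries, the protein-coding genes nearest to Plscr1 were P2rx7 (14.8 and 28.8 FPKM), Mndal (14.6 and 27.5 FPKM) and Igtp (15.8 and 28.1 FPKM), and those nearest to Xkr8 were Fam174a (6.92 and 4.91 FPKM) and Calhm5 (7.10 and 4.96 FPKM). Likeness was the distance of log2(FPKM + 1) over only 2 libraries, so many genes lie close.

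Of 12 further P4-ATPases, 5 passed the filter, with a median log2 ratio of 0.14 and none at 2-fold on the scale of FPKM + 1. Atp10a, a phosphatidylcholine flippase, was at 6.05 and 12.4 FPKM (ratio 2.04 [1.78 to 2.35], log2 ratio 0.92). Atp8b2 was at 81.9 and 101.3 FPKM, and Atp9b, a P4-ATPase of the Golgi that can leave the endoplasmic reticulum without a chaperone, was at 33.9 and 28.7 FPKM.

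The measured partners and the 1 measured relative of Xkr8 had ratios closer to 1 than that of Xkr8, but the relative's counting interval overlapped that of Xkr8. Basigin (Bsg), 1 of the chaperones that carry Xkr8 to the cell surface, was at 1023 and 977 FPKM, and neuroplastin (Nptn), the other, at 279 and 232 FPKM, a ratio of 0.834 [0.803 to 0.866]. Vps13a, a lipid-transfer protein that binds the relative Xk, was at 19.7 and 20.2 FPKM, and the 3 partners had a median log2 ratio of −0.07. Of 7 other XK-related genes, Xkr5 alone passed the filter (3.61 and 2.90 FPKM), and Xk, Xkr6 and Xkr7 had no reads. The ratio of Xkr5 was 0.804 [0.647 to 0.997], beside an interval of 0.558 to 0.863 for Xkr8. Xkr4 and Xkr9, the other members of the family that caspases switch on, had 1 read each in young and 0 in old cells, so Xkr8 was the only caspase-activated scramblase of the family with more than 1 read in a library.

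Of 9 other TMEM16 genes, 3 passed the filter, with a median log2 ratio of −0.24. Ano10 was at 26.2 and 30.6 FPKM, Ano8 at 19.3 and 16.2 FPKM, and Ano3 at 6.50 and 4.58 FPKM, while Ano2, Ano5 and Ano9 had no reads. Ano6 was therefore the most abundant of the 10 TMEM16 genes in both libraries at the deposited lengths.

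The list drawn up as scramblases of internal membranes had a median of −0.01 over 6 genes and none at 1.5-fold. The membrane in which each protein acts, Tmem63b included, was not measured. Clptm1l (86.6 and 69.9 FPKM) and Tmem63b (107.6 and 96.2 FPKM) were lower in the old library and Atg9a (12.5 and 14.3 FPKM) higher, with 41.2% of the 50-base words of Atg9a shared with other genes. The 4 measured ABC lipid exporters, which move lipids outward, had a median log2 ratio of 0.21, beside −0.07 for all genes. Counting intervals lay above 1 for 2 of them, beside 20.6% of all genes, and held 1 for the other 2. Abcc1 was at 27.7 and 41.8 FPKM (ratio 1.51 [1.41 to 1.62]) and Abca1 at 0.899 and 1.26 FPKM (ratio 1.40 [1.05 to 1.88]). Abcb1b was at 16.6 and 18.8 FPKM, with an interval that holds 1 (0.992 to 1.28).

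The enzymes that make phosphatidylserine were level within counting error, and some other genes of their list were not. Ptdss1 and Ptdss2, the synthases, were at 25.2 and 25.6 FPKM and at 28.1 and 27.2 FPKM, with intervals that hold 1 (0.907 to 1.14 and 0.851 to 1.10). The list of synthesis, transfer and breakdown had a median of −0.04 over 7 genes. Osbpl8, which carries phosphatidylserine between membranes, was at 17.9 and 13.3 FPKM (ratio 0.743 [0.677 to 0.815]). Abhd16a, a phosphatidylserine lipase, was at 65.2 and 53.5 FPKM (ratio 0.820 [0.750 to 0.897]). Abhd12 was at 74.7 and 79.5 FPKM, with an interval that holds 1 (0.991 to 1.14). The caspase list had a median of −0.12 over 6 genes; Xiap, an inhibitor of caspases, was at 16.4 and 12.2 FPKM, Casp6 at 12.6 and 10.8 FPKM, and Casp8 at 15.2 and 17.2 FPKM.

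**Figure D4:**
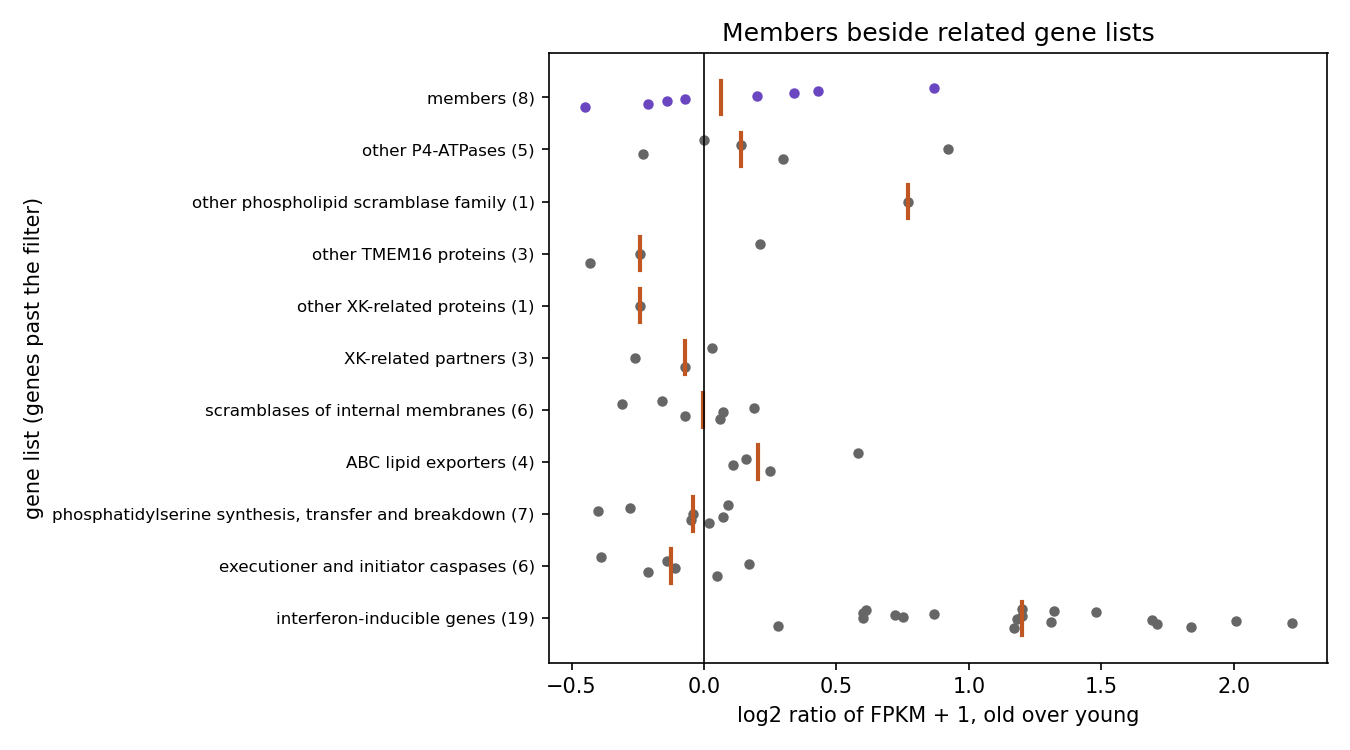
Log2 ratio of FPKM + 1, old over young, of each gene past the filter (points) among the 9 genes, labelled members, and 10 related lists, with the number of genes in brackets and the median as an orange bar; points are spread vertically only to separate them. The interferon-inducible genes have a median of 1.20, and the medians of the lists for lipid supply, caspases and internal scramblases lie between −0.12 and −0.01.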

How the data were processed

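The authors deposited 1 FPKM value per gene and library. Per the submitters' processing notes, the tools were STAR, HTSeq, edgeR and fastp, on mm10. Which step each served, its version, the annotation release and any use of strand were not given in the sources used here. Gene symbols, coordinates and transcripts came from GENCODE M21 (GRCm38), which named 55141 identifiers; start-site windows came from RefSeq (GRCm38.p6). Xkr8 is not in the window table.

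Reads were recovered from the steps of low values, with the rounded mean transcript length of each gene. Of the values above 0, 97.6% came out whole within 0.01. Ratios have exact Clopper-Pearson intervals of the old library's share of reads. Log2 ratios are of FPKM + 1 (understating low genes) over genes that average 1 FPKM or more. No test and no p-value was possible. The calculation was tested on simulated data. Python 3.11.15 with numpy 2.4.6, scipy 1.17.1 and pandas 2.3.3 was used.

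The members and lists were chosen with earlier results of these data known. All 138 listed symbols had an identifier. Named were all members, up to 3 genes per list with the largest log2 ratios, 8 pathway genes whatever their values, and the 3 genes nearest in level to Plscr1 and Xkr8; other genes, cell markers aside, were chosen after their values were seen. Some genes that this rule names are not reported here. Pseudocount, filter and scaling were varied, and the version without a pseudocount and the full exon length were added after seeing the data.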

Additional observations from a re-analysis of the deposited data

How the results depend on the processing

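Over 8 alternatives (pseudocounts of 0.1, 5 and none, no filter, a filter at 10 FPKM, no 10 most abundant genes, protein-coding scaling and centring on the median gene), all 62 log2 ratios of single members moved by less than their counting error, and the 32 counts of members at 2-fold and 1.5-fold stayed as they were. Plscr1 ranged from 0.73 to 0.93, Ano6 from 0.32 to 0.41, Plscr3 from 0.18 to 0.26, Plscr4 from 0.28 to 0.50, Xkr8 from −0.53 to −0.28, Atp11b from −0.22 to −0.15, Tmem30a from −0.14 to −0.07 and Atp11a from −0.08 to −0.01. Xkr8 and Plscr4 have no value with the filter at 10 FPKM. The median of the members ranged from −0.03 (no filter, with Atp8a1) to 0.13 (centred), so its sign depends on whether Atp8a1 enters. Of 79 list medians, 4 moved by more than the median counting error of their genes: the interferon-inducible genes to 1.04 at a pseudocount of 5, the other TMEM16 genes to −0.01 both with no filter and with the filter at 10 FPKM (fewer or more genes enter), and the partners of the XK family to 0.00 after centring. Depth limits Atp8a1, which cannot be compared, and widens the intervals of Xkr8 and Plscr4. No paired analysis was possible because each group has 1 library.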

Other observations

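Some relatives of the members lay under the filter of 1 FPKM, and the genes in this paragraph were chosen after their values were seen. Atp8b4, a P4-ATPase, was at 0.199 FPKM (11 reads) in young and 1.55 FPKM (95 reads) in old cells, a ratio of 7.79 [4.16 to 16.1], which is larger than that of any member. Atp8b3, of the same family, had 5 reads (young) and 18 (old), with a ratio of 3.25 [1.16 to 11.2]. The ABC exporter gene Abcb1a had 4 reads (young) and 26 (old), and its ratio was 5.86 [2.03 to 23.1]; other genes shared 17.1% of its 50-base words. The chemokine Ppbp, from the platelet marker list, had 2 reads (young) and 69 (old), while of the platelet markers on that list Itga2b had 169 (young) and 161 (old), Pf4 had 1 and 4, and Gp9 had 0 and 1.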
